A study of Mus musculus with 4 samples.

Results

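The 10 genes described here encode the classical MHC class I pathway of antigen presentation and the immunoproteasome: H2-K1 and H2-D1 (the class I heavy chains), B2m (their light chain), Tap1, Tap2 and Tapbp (peptide transport and loading), Psmb8, Psmb9 and Psmb10 (the inducible proteasome subunits) and Nlrc5 (a transactivator of class I genes). They were chosen by symbol for their role, not by measured values, and all 10 were found among the 14432 genes of the deposited count table. The cells were mouse bone marrow-derived macrophages, primary cells grown out of marrow in the growth factor M-CSF (50 ng/mL), and they were sequenced singly on the 10x Genomics droplet platform. There were 4 libraries, 1 for each combination of genotype and treatment. Both wild-type libraries came from cells of C57BL/6J mice (the titles; the growth protocol has C57BL/6), either untreated or kept for 24 h with 100 ng/mL of lipopolysaccharide (LPS, from bacterial cell walls). The other 2 libraries, untreated and given the same LPS dose, carry the genotype label Trpv4-null, which names a mouse line without the calcium-permeable channel TRPV4. All mice were aged 8 to 12 weeks. The design text speaks of 3 mice per genotype, but the cell annotation names only the library of a cell, so how many mice a library holds is unknown and none of the differences below has a replicate check.

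In the class I pathway, the proteasome cuts cytosolic proteins into peptides, the TAP1 and TAP2 transporter carries them into the endoplasmic reticulum, and tapasin (Tapbp) holds the transporter to heavy chains that wait for a peptide. The loaded heavy chain and beta-2-microglobulin then go to the cell surface, where CD8 T cells read them. In cells exposed to interferons, the subunits Psmb8, Psmb9 and Psmb10 replace the constitutive catalytic subunits Psmb5, Psmb6 and Psmb7 in newly built proteasomes. LPS, sensed through the receptor TLR4, makes macrophages release type I interferon as well as NF-kB-driven cytokines.

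Levels are unique molecular identifiers (UMIs, which tag mRNA molecules as they are captured) summed over the cells of a library and given per 1000000 UMIs of that library (CPM). The libraries held 5485 to 8288 cells and 43731003 to 144090985 UMIs. Where a pair of values is given, wild type stands first and the library labelled Trpv4-null second. Median depth per cell was 5660.5 and 7893 UMIs before LPS, and 16673.5 and 16041 UMIs with it. The median share of mitochondrial UMIs was 6.06% and 6.13% untreated and 3.05% and 3.19% after LPS. All 14 macrophage markers looked up reached 20 CPM in every library. The table held 1 of 9 T or NK, 2 of 7 stromal, 4 of 5 endothelial and 4 of 4 progenitor cell markers. None of these reached 20 CPM in any library, which for T or NK and stromal cells rests on few markers. Trpv4 itself was not depleted under the null label, at 5.83 and 8.60 CPM before LPS and 2.07 and 9.62 CPM with it, so the genotype is given below only as a label. The sources used here do not say which part of the gene the line lacks, and reads from outside it would check nothing. The 10 genes had between 556 UMIs (Nlrc5, untreated wild type) and 678693 UMIs (B2m, wild type after LPS) in a library. The exact Poisson 95% interval of their CPM values had a median half-width of 1.04% and at most 8.40% of the value. Intervals, given in brackets after a value, cover counting error only. No p-value is given anywhere, since each group is 1 library.

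In the mouse genome (GRCm38), 7 of the 10 genes lie on chromosome 17, in or beside the H2 complex. Psmb9 (17:34181987-34187764, minus strand), Tap1 (17:34187553-34197225), Psmb8 (17:34197721-34201454) and Tap2 (17:34203527-34216321) stand side by side within 34335 bases. Their RefSeq starts leave 225 bases between Psmb9 and Tap1, which run away from each other. H2-K1 (17:33996017-34000347, minus strand) and Tapbp (17:33915899-33929292) lie to the one side of these 4 genes and H2-D1 (17:35262730-35267499) to the other. B2m lies on chromosome 2 (2:122147686-122153083), and Psmb10 (8:105935735-105938444, minus strand) and Nlrc5 (8:94434356-94527272) lie on chromosome 8.

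Sequence upstream of the start was given by RefSeq (GRCm38.p6) for 8 of the 10 genes, and 3 of them share an arrangement of short motifs that the other 5 lack. It holds parts of the class I promoter module as textbooks describe it. First comes a kappaB consensus (an NF-kB motif), then TGACG (the core of a cyclic AMP response element, found in the X2 box). Last is CCAAT (the Y box, bound by NF-Y), here on the reverse strand as ATTGG. The 250 bases before the start of H2-K1 (chr17:34000348-34000597, minus strand) and 249 bases before that of B2m (chr2:122147437-122147685, plus strand), neither of which overlaps an annotated exon, are shown to place these motifs. Capitals mark the kappaB consensus, the X2 core, the reversed Y box and, in B2m, an interferon-response-like motif described below.
H2-K1: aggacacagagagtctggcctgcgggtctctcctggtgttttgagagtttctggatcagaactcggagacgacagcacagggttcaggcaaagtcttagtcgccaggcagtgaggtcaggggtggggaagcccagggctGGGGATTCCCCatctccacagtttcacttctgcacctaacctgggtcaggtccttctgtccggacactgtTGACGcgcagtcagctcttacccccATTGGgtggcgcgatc
B2m: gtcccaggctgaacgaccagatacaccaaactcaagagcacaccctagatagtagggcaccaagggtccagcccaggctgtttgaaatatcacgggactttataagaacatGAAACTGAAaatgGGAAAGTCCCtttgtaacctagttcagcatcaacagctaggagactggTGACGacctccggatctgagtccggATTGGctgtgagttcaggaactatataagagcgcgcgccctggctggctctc

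The stretch from the X2 core to the reversed Y box is set out for the 3 genes because its length is the same in each: 30 bases, with 25 from the first base of one motif to the first base of the next. It lies at chr17:34000359-34000388 (minus strand) for H2-K1, at chr17:35262993-35263022 (plus strand) for H2-D1 and at chr2:122147609-122147638 (plus strand) for B2m. The start that RefSeq gives for H2-D1, like that for Psmb8, lies inside the GENCODE gene bounds given above, so their windows overlap annotated exons and only short stretches are shown.
H2-K1: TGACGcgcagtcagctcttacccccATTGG
H2-D1: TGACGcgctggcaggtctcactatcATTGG
B2m: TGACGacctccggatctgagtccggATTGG
Of 32536 distinct upstream windows of mouse genes, 30 (0.0922%) held both at this spacing in this order, a pattern that was noticed in these genes and then counted. TGACG on either strand was found in 17.9% of all windows and in 5 of the 8 windows of these genes, and CCAAT on either strand in 33.8% and in 6 of 8. The windows of Tap1 and Psmb9 overlap, and their matches to both motifs are the same sites read from either side, so each such site is counted for both genes.

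The kappaB matches of the same 3 genes are shown with the bases around them, capitals marking the match (chr17:34000438-34000467, chr17:35262914-35262943 and chr2:122147552-122147581).
H2-K1: cccagggctGGGGATTCCCCatctccacag
H2-D1: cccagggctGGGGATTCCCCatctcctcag
B2m: ctgaaaatgGGAAAGTCCCtttgtaaccta
A kappaB match was present in 3.92% of all windows and in 3 of these 8. In H2-K1 and H2-D1 it began 70 bases before TGACG, and in B2m 48 bases. Over the 100 bases from the kappaB match through the reversed Y box, H2-K1 and H2-D1 were identical at 89 positions, counted without gaps. The interferon-response-like GAAANNGAA was found in these letters in 7.15% of all windows and, among the 8, in B2m only. Variants of these letters were not searched, so having no match does not mean that H2-K1 or H2-D1 lacks such an element. The STAT-type TTCNNNGAA was found in 7.04% and, among the 8, in Psmb8 only, shown here with the match in capitals (chr17:34198088-34198117, plus strand).
Psmb8: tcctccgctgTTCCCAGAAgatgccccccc
The windows of Tap1, Tapbp, Psmb9 and Psmb10 held none of these 3 motifs in these letters. A match is a description of the sequence and says nothing of whether a factor was bound in these cells.

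After LPS, 9 of the 10 genes were at least 2-fold higher in wild type and the same 9 were at least 2-fold higher in the libraries labelled Trpv4-null. Over all genes compared, 6.9% were at least 2-fold higher and 17.7% at least 2-fold lower in wild type, and 7.3% and 21.3% in the libraries labelled Trpv4-null. H2-D1 alone stayed under 2-fold, and none of the 10 was lower in either genotype. The median log2 ratio of the 10 genes was 1.67 and 1.68, where that of all compared genes was -0.39 and -0.42. The LPS libraries also had more UMIs per cell and a lower mitochondrial share, as given above. Markers of some other cell types moved with LPS too. For monocytes, 3 of 8 markers had 20 CPM or more somewhere. The list summed to 86.0 and 92.6 CPM before LPS and to 871 and 977 CPM with it. That rise was in Ms4a4c alone (11.4 and 17.1 CPM before, 825 and 935 CPM with LPS). The rest of the list summed to less with LPS than before it in both genotypes. For neutrophils, 3 of the 7 markers found had 20 CPM or more somewhere. Their sums were 177 and 293 CPM and then 48.5 and 26.1 CPM (S100a9 94.1 and 153, then 19.9 and 6.75 CPM). Of 4 B cell markers 1 did, Ighm, at 134 and 137 CPM and then 0.104 and 0.0367 CPM. Of 10 dendritic cell markers 1 did, Irf8, at 346 and 365 CPM and then 185 and 201 CPM. No erythroid marker was in the table, and the part of these cells in the LPS ratios was not tested. With every cell thinned to 3000 UMIs, 9 of the 10 were again at least 2-fold higher in both genotypes. In bulk sums of this kind, fewer cells with a transcript and fewer transcripts per cell cannot be told apart, so levels per cell are given further on.

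**Figure D1:**
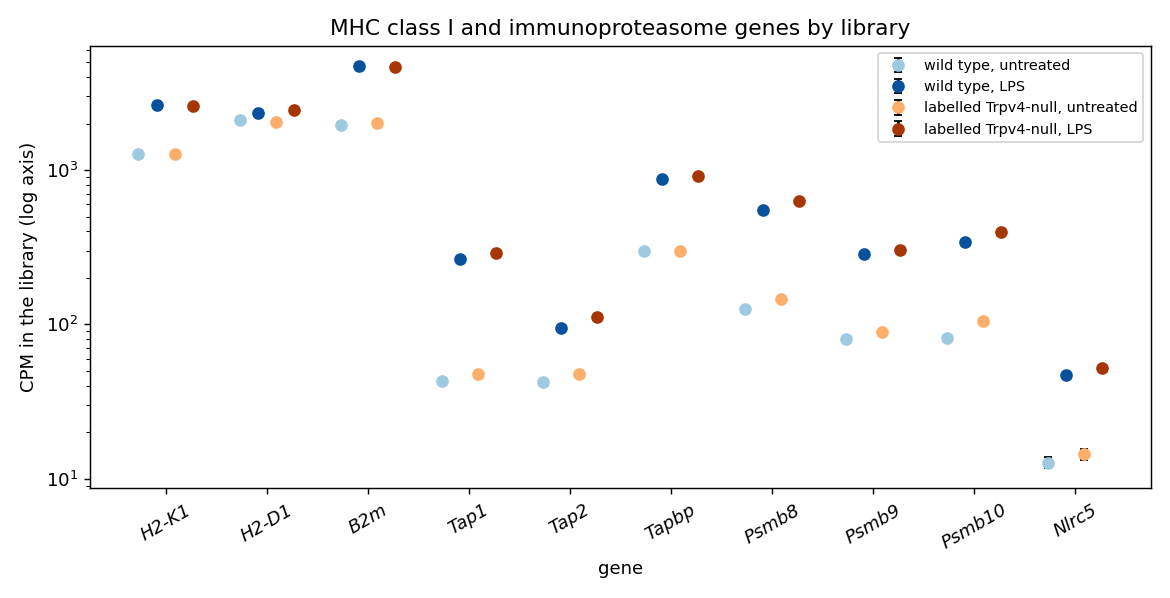
Level of each gene in each of the 4 libraries, in CPM on a log axis, with exact Poisson 95% intervals as bars (mostly smaller than the points). The LPS libraries (dark) lie above the untreated libraries (light) for all 10 genes, by the smallest step for H2-D1 and by the largest for Tap1, and points of the same treatment lie close together.

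The heavy chains H2-K1 and H2-D1, which hold the peptide and are the part of the complex that T cell receptors contact, differed from each other. H2-K1 stood at 1275 and 1263 CPM in the untreated libraries and 2660 and 2608 CPM after LPS. Both treated libraries were thus above both untreated ones, by 2.09 (2.07 to 2.10) and 2.07 (2.05 to 2.08) fold. H2-D1 stood at 2106 and 2061 CPM in the untreated libraries and 2340 and 2450 CPM after LPS. The treated libraries were again the higher ones, but the ratios were 1.11 (1.10 to 1.12) and 1.19 (1.18 to 1.20). H2-K1 therefore made up 37.7% (37.5 to 38.0%) and 38.0% (37.7 to 38.2%) of the UMIs of the pair before LPS and 53.2% (53.1 to 53.3%) and 51.6% (51.4 to 51.7%) after it, a share that no scaling between libraries can move. It was higher after LPS in all 8 clusters of either genotype, by 6.94 to 18.5 percentage points. Heavy chain genes are close relatives, and reads could be given to the wrong one. Of the 50-base stretches in the last 500 bases of the principal transcript, 0.443% of those of H2-K1 also occur in H2-D1. Of those of H2-D1, 9.53% occur in transcripts of other genes, among them AC132307.5, Adsl and Kcnk4. The other 8 genes share none.

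B2m encodes beta-2-microglobulin, the light chain without which heavy chains do not reach the surface. It stood at 1955 and 2006 CPM in the untreated libraries and 4710 and 4653 CPM after LPS. The ratios were 2.41 (2.39 to 2.43) and 2.32 (2.30 to 2.34), between those of H2-D1 and Tapbp, and the untreated and treated libraries lay far apart against a difference between genotypes of at most 1.03-fold.

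Of the peptide transport genes, Tap1 had the largest ratio of all 10. Tap1, the first chain of the transporter, stood at 43.2 and 47.7 CPM in the untreated libraries and 266 and 291 CPM after LPS, which gave ratios of 6.17 (5.89 to 6.46) and 6.10 (5.85 to 6.37). In wild type 97.8% of the 6332 compared genes had a smaller LPS ratio. Its partner Tap2 stood at 42.3 and 47.6 CPM in the untreated libraries and 94.9 and 111 CPM after LPS, and its ratios were 2.25 (2.14 to 2.36) and 2.34 (2.24 to 2.45). The 2 chains of the heterodimer thus had unequal ratios, and their intervals were far apart. Tapbp, the tapasin gene, stood at 299.9 and 299.9 CPM in the untreated libraries and 876 and 913 CPM after LPS. Its ratios lay between those of Tap2 and Tap1, at 2.92 (2.87 to 2.97) and 3.05 (2.99 to 3.1).

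The 3 immunoproteasome genes had ratios of 3.42 to 4.43. Psmb8, whose product takes the place of Psmb5, stood at 125 and 146 CPM in the untreated libraries and 554 and 631 CPM after LPS, ratios of 4.43 (4.31 to 4.56) and 4.33 (4.22 to 4.44). Psmb9, which takes the place of Psmb6, stood at 80.3 and 89.1 CPM in the untreated libraries and 287 and 304 CPM after LPS, ratios of 3.58 (3.45 to 3.70) and 3.42 (3.31 to 3.53). Psmb10, which takes the place of Psmb7, stood at 82.2 and 105 CPM in the untreated libraries and 342 and 397 CPM after LPS, ratios of 4.16 (4.03 to 4.31) and 3.78 (3.67 to 3.90). Every treated library was more than 3 fold above the untreated library of its genotype for each of these genes.

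Nlrc5, a NOD-like receptor that enters the nucleus and acts on class I promoters, had the lowest counts. It stood at 12.7 and 14.4 CPM in the untreated libraries and 46.9 and 52.4 CPM after LPS, which gave ratios of 3.69 (3.38 to 4.03) and 3.64 (3.36 to 3.95). The class II counterpart of Nlrc5, Ciita, went the other way: it stood at 3.98 and 6.45 CPM in the untreated libraries and 0.312 and 0.715 CPM after LPS, under the 20 CPM needed in the higher library for a gene to be compared.

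**Figure D2:**
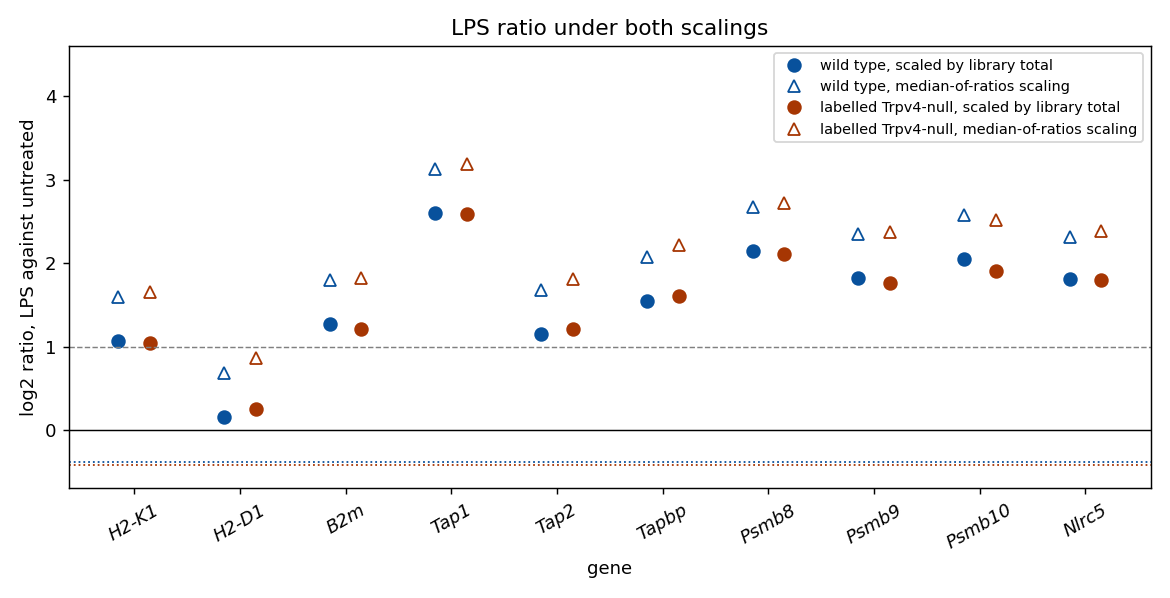
log2 ratio of LPS to untreated for each gene in wild type (blue) and in the libraries labelled Trpv4-null (brown), with libraries scaled by their total (filled circles) or by median-of-ratios size factors (open triangles). The dashed line marks 2-fold, and the dotted lines mark the median of all compared genes under scaling by total (-0.39 and -0.42); all points but those of H2-D1 lie above 2-fold.

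How far these ratios stand from 1 depends on the scaling. Median-of-ratios size factors added 0.53 and 0.61 to the LPS log2 ratio of an abundant gene and TMM factors 0.52 and 0.58, and the median over compared genes then came to 0.13 and 0.18 with the former. The same 9 of the 10 genes were at least 2-fold higher with either. H2-D1 came to a log2 ratio of 0.68 and 0.86 with median-of-ratios size factors. Across all genes the split of 2-fold sizes turned over, from 437 higher and 1121 lower to 864 and 391 in wild type, and from 463 and 1348 to 1031 and 453 in the libraries labelled Trpv4-null. With the 8 clusters weighted equally, H2-K1 came just under 2-fold in both genotypes (log2 ratio 0.98 and 0.99) and Tap2 in wild type (0.96), which left 7 and 8 genes.

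Within each pair of exchangeable proteasome subunits, the immunoproteasome gene gained share after LPS. Psmb8 made up 50.7% (49.8 to 51.7%) and 55.8% (55.0 to 56.7%) of the UMIs of Psmb8 and Psmb5 untreated, and 66.3% (66.0 to 66.5%) and 67.2% (66.9 to 67.5%) after LPS. Psmb9 made up 30.4% (29.6 to 31.3%) and 33.0% (32.2 to 33.9%) of the UMIs of Psmb9 and Psmb6 untreated, and 47.5% (47.2 to 47.8%) and 45.7% (45.3 to 46.1%) after LPS. Psmb10 made up 48.4% (47.3 to 49.6%) and 53.8% (52.8 to 54.8%) of the UMIs of Psmb10 and Psmb7 untreated, and 71.3% (71.0 to 71.7%) and 73.1% (72.7 to 73.4%) after LPS. All 3 shares were higher in both treated libraries than in both untreated ones, with intervals that did not overlap, and Psmb10 gained the most. The constitutive genes were not lower after LPS. Psmb5 stood at 121 and 115 CPM in the untreated libraries and 282 and 307 CPM after LPS, Psmb6 at 183 and 181 CPM in the untreated libraries and 317 and 362 CPM after LPS and Psmb7 at 87.5 and 90 CPM in the untreated libraries and 138 and 146 CPM after LPS. These shares are of UMIs, which are not scaled to transcript length or to capture, so their change between libraries can be read but not their distance from an even split.

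**Figure D3:**
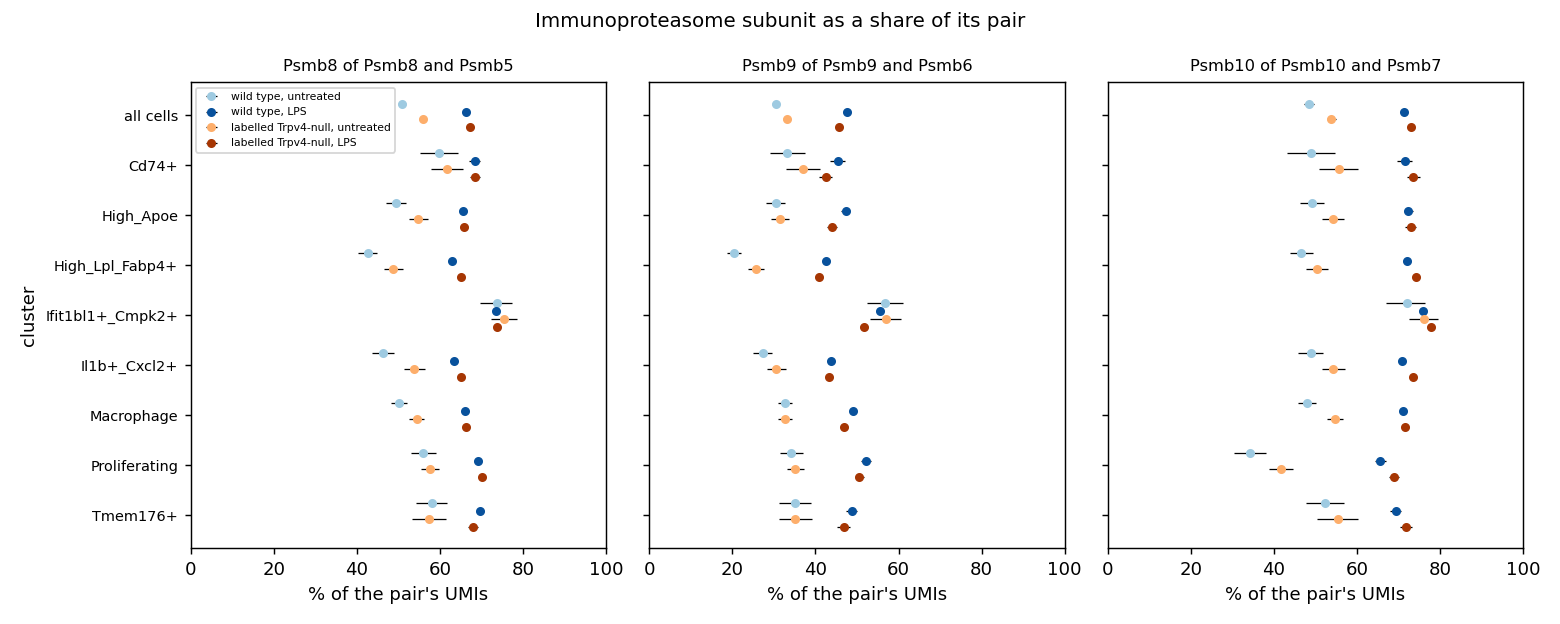
Share of each immunoproteasome gene in the UMIs of its pair (horizontal axis, percent) for all cells and for 8 clusters, in the 4 libraries, with exact binomial 95% intervals. Treated libraries (dark) lie to the right of untreated ones (light) in 7 clusters, while in the cluster named Ifit1bl1+_Cmpk2+ the untreated points already lie at 56.8% to 76.1%.

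The authors had sorted the cells into 9 named clusters, and 8 of them had at least 100 cells in every library. The clusters were drawn from these same cells, and the sources used here do not say which genes entered. Differences between clusters are thus a description. In all 8 clusters, each of the 10 genes had an LPS ratio above 1 in both genotypes. The counting interval also lay above 1 in all of these cases but 1, H2-D1 in the cluster High_Apoe of wild type, where the ratio was 1.02.

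The cluster named for Ifit1bl1 and Cmpk2, both interferon-stimulated genes, held 2.52% and 3.26% of untreated cells and 10.4% and 11% of cells after LPS. It had the highest level of 8 of the 10 genes among the 8 clusters in both untreated libraries and of 9 in both treated ones. In the untreated libraries the exceptions were H2-K1 and H2-D1, which were highest in the cluster Cd74+, with intervals that overlapped those of the next cluster except for H2-D1 in the library labelled Trpv4-null. In the treated libraries the exception was Psmb8, which was highest in Tmem176+ (723 CPM) and in Cd74+ (754 CPM). In the cluster Ifit1bl1+_Cmpk2+, Tap1 stood at 204 and 210.4 CPM without LPS, when the other 7 clusters had 30.3 to 65.9 CPM. After LPS it stood at 347 and 349 CPM against 248 to 317 CPM elsewhere, so the gap narrowed. Nlrc5 went from 49.1 and 64.7 CPM to 68.5 and 80.1 CPM in this cluster. The median of the 10 log2 ratios to the whole library was 1.18 and 1.11 untreated and 0.30 and 0.23 after LPS. Its cells had a median of 6368 and 8663 UMIs untreated and 16398 and 16375.5 UMIs after LPS, near those of their libraries.

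The LPS ratio in that cluster was accordingly the smallest of the 8 for Tap1, Tap2, Tapbp, Psmb8, Psmb9, Psmb10 and Nlrc5 in both genotypes. For Tap1 it was 1.70 (1.5 to 1.93) and 1.66 (1.49 to 1.85), where the cluster High_Lpl_Fabp4+ had 8.20 (7.20 to 9.36) and 8.79 (7.72 to 10.0). For Nlrc5 it was 1.39 (1.08 to 1.84) and 1.24 (1.02 to 1.52), the lowest ratios of that gene. For H2-K1 and B2m the smallest ratios lay elsewhere, in the clusters Proliferating (1.62 and 1.5) and Tmem176+ (2.03 and 1.97). For H2-D1 they lay in High_Apoe (1.02 and 1.13). The largest ratio of H2-D1 was 1.18 in wild type, in High_Lpl_Fabp4+. In the libraries labelled Trpv4-null it was 1.29, in the cluster Ifit1bl1+_Cmpk2+ itself. Leaving out the cluster Ifit1bl1+_Cmpk2+, a setting added after seeing the data, left 9 of the 10 genes at least 2-fold higher in both genotypes.

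**Figure D4:**
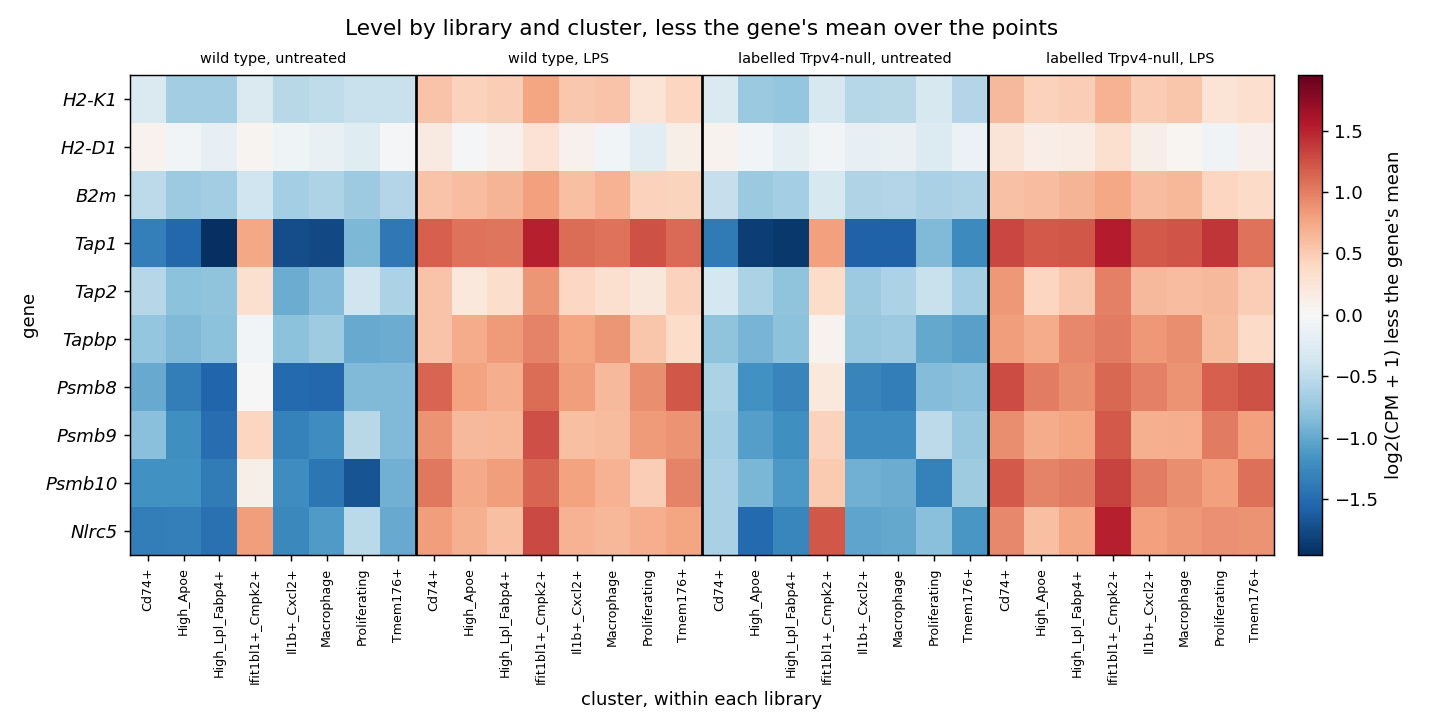
Level of each gene (rows) in 8 clusters of each of the 4 libraries (columns), as log2(CPM + 1) less the mean of the gene over the 32 points; red is above and blue below that mean. The column of the cluster Ifit1bl1+_Cmpk2+ is the least blue or the reddest for 8 of the 10 genes within each untreated library, and H2-D1 varies least.

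Pair shares showed the same cluster apart. In it, Psmb8 made up 73.6% and 75.5% of its pair untreated and 73.6% and 73.7% after LPS. Psmb9 made up 56.8% and 56.9% untreated and 55.5% and 51.7% after LPS, and Psmb10 71.9% and 76.1% and then 76.0% and 77.8%. The intervals before and after LPS overlapped in 5 of these 6 cases, the exception being Psmb9 in the libraries labelled Trpv4-null, where the share was lower after LPS. In the other 7 clusters the Psmb8 share was higher after LPS by 6.76 to 20.3 percentage points, the Psmb9 share by 5.51 to 22.2 and the Psmb10 share by 16.4 to 31.5, over both genotypes. Their intervals did not overlap, apart from Psmb9 in the cluster Cd74+ of the libraries labelled Trpv4-null, where the gain was the smallest. The lowest untreated shares of Psmb8 and Psmb9 were in High_Lpl_Fabp4+ (20.4% and 25.7% for Psmb9). The lowest of Psmb10 were in Proliferating (34.2% and 41.7%).

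Between cells, the 10 genes were compared after thinning each cell to 3000 UMIs, which left out 666 and 209 shallower cells untreated and 122 and 93 after LPS. The summed UMIs of the 10 genes had a median of 18 in both untreated libraries and of 37 and 38 after LPS. Of the treated cells, 83.8% and 80.8% lay above the 95th percentile of the untreated cells of their genotype (28 and 29 UMIs). H2-K1, H2-D1 and B2m made up most of that sum, with a mean of 30.5 of 37.9 UMIs in treated wild-type cells. For Tap1, Tap2 and Tapbp together, 52.6% and 56.7% of treated cells lay above the 95th percentile of untreated cells (3 UMIs), and for Psmb8, Psmb9 and Psmb10 together 41.1% and 50.3% did (3 UMIs). The 3 immunoproteasome genes together had no UMI in 46.1% and 40.7% of untreated cells and in 5.73% and 3.75% of treated cells. Tap1 had a UMI in 11.1% and 12.1% of thinned untreated cells and in 53.5% and 57.3% of thinned treated ones, against 21.2%, 29.1%, 93.8% and 95.1% without thinning. Every cluster is of cells that make class I molecules, so the part of free RNA in such shares was not tested.

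The genes that work with these 10 were described by list, each by its count at least 2-fold higher or lower and its median log2 ratio, to be read beside the all-gene shares and medians above. Of 23 class Ib and class I-like genes, 15 were in the table, 11 were compared, and in both genotypes 8 reached 2-fold higher and 2 reached 2-fold lower (median 1.63 and 1.68). The largest ratios were those of H2-M2, from 1.83 and 0.638 CPM to 59.3 and 81.1 CPM, and of H2-Q7, from 5.49 and 5.21 CPM to 119.9 and 113 CPM. H2-Q6 had log2 ratios of 3.63 and 3.76 and H2-T22 of 2.96 and 2.83. The 2 lower genes encode class I-like proteins that also pair with beta-2-microglobulin but present no peptide: Fcgrt, the neonatal Fc receptor, went from 382 and 388 CPM to 56.4 and 51.0 CPM, and Hfe, which acts in iron uptake, from 106 and 110.2 CPM to 45.1 and 38.7 CPM. They were named after their values were seen. The H2-Q and H2-T genes are near-identical copies among which counts may be split, and the list also holds H2-Ke6, which is no class I protein.

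Of 10 genes of peptide loading and trimming in the endoplasmic reticulum, 1 was at least 2-fold higher in wild type, and 2 higher and 1 lower in the libraries labelled Trpv4-null (median 0.38 and 0.51). Calr, the chaperone calreticulin of the loading complex, stood at 385 and 398 CPM in the untreated libraries and 978 and 1013 CPM after LPS. Pdia3, the disulfide isomerase that pairs with tapasin, had log2 ratios of 0.73 and 0.81, and Canx, the chaperone calnexin, of -0.04 and -0.08. Erap1, which trims peptides to length, had log2 ratios of 0.89 and 0.85. Tapbpl, an editor of loaded peptides, had 0.98 and 1.02, and Uggt1, which checks glycoprotein folding, -0.84 and -1.08, either side of 2-fold. Of the 5 genes of the proteasome activator list, 2 were at least 2-fold higher in both genotypes (median 0.38 and 0.36). They were Psme2, at 115 and 114 CPM in the untreated libraries and 499.7 and 580.1 CPM after LPS, and Psme1, at 162 and 174 CPM in the untreated libraries and 417 and 478 CPM after LPS, the 2 subunits of the PA28 cap that opens the proteasome.

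The rest of the proteasome was less far from 1. Of the 3 constitutive catalytic subunits, Psmb5 alone was at least 2-fold higher in both genotypes with libraries scaled by their total (median of the 3: 0.79 and 1.0). Of the other 11 subunits of the 20S core, 2 and 3 were at least 2-fold higher (median 0.75 and 0.90), among them Psma6 (1.13 in wild type) and Psmb3 (1.05). Of 18 genes of the 19S regulatory particle, 1 was in each genotype (median 0.38 and 0.46), with Psmc5 highest in wild type at 1.07. Of 5 assembly genes, 3 were compared and 0 were (median 0.06 and -0.05), with Pomp, a proteasome maturation factor, at 0.61 and 0.72. None of the genes in these 4 lists was at least 2-fold lower.

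Among 27 regulators of class I transcription and interferon signalling, 22 were compared, 4 were at least 2-fold higher and 1 was lower in both genotypes (median -0.22 and -0.13). The higher genes included Irf7, an interferon-induced transcription factor, with log2 ratios of 5.27 and 4.56, Stat2 with 2.74 and 2.55, and the kinase Jak2 with 2.21 and 2.09. Irf7 stood at 28.3 and 53.9 CPM in the untreated libraries and 1131 and 1292 CPM after LPS. Irf1, a direct activator of Tap1 and Psmb9 in other settings, stood at 46.2 and 60.2 CPM in the untreated libraries and 66.2 and 79.8 CPM after LPS, under 2-fold with this scaling. The lower gene was Ifngr1, a chain of the interferon-gamma receptor, with log2 ratios of -1.18 and -1.09, named after its values were seen.

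These list counts depend on the scaling more than those of the 10 genes do. With median-of-ratios factors, all 3 constitutive catalytic subunits were at least 2-fold higher in both genotypes, as were 8 and 9 of the other 11 core subunits, 6 and 12 of the 18 genes of the 19S particle, and 1 of 3 assembly genes (Pomp). Of the 10 loading and trimming genes 4 and 6 were, among them Pdia3, Erap1 and Tapbpl, and 0 were lower, with Canx above 0 (log2 ratio 0.49 and 0.53). Of the 22 regulators 5 and 7 were higher, with Irf1 just past 2-fold (1.03 and 1.0), and 0 were lower. The class Ib list kept 8 higher, and Fcgrt was its 1 lower gene. The activator list had 2 higher, as before. TMM factors gave the same counts in every list but the regulators of the libraries labelled Trpv4-null, where 5 were higher. Relative to the all-gene medians of 0.13 and 0.18 under median-of-ratios factors, the list medians were 2.19 and 2.29 for the 10 genes, 1.27 and 1.51 for the other core subunits, 0.91 and 1.07 for the 19S particle and 0.30 and 0.46 for the regulators.

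Between the genotype labels, none of the 10 genes differed by 2-fold in either treatment. Over all compared genes, 0.146% were at least 2-fold higher and 0.146% at least 2-fold lower in the untreated library labelled Trpv4-null, and 0.134% and 0.0573% after LPS. The members' count is thus near the background. Untreated, 9 of the 10 genes were compared (Nlrc5 was under 20 CPM in both libraries), with a median log2 ratio of 0.14 where that of all genes was -0.02. After LPS all 10 were compared, with a median of 0.11 where that of all genes was -0.04. The LPS comparisons above share their libraries with these.

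The small differences that were measured lay mostly with the immunoproteasome and the transporter. Psmb10 was 1.28 (1.22 to 1.33) fold higher in the library labelled Trpv4-null untreated and 1.16 (1.14 to 1.17) fold after LPS. It was above 1 in all 8 clusters in both treatments, and the counting interval lay above 1 in 7 and in 8 of them. Psmb8 was 1.16 (1.12 to 1.21) and 1.14 (1.13 to 1.15) fold higher, and above 1 in all 8 clusters in both treatments. Tap2 was 1.13 (1.06 to 1.20) and 1.17 (1.14 to 1.20) fold higher, with all 8 clusters above 1 after LPS and 6 of 8 untreated. Tap1 had 1.10 (1.04 to 1.17) and 1.09 (1.08 to 1.11), Psmb9 1.11 (1.06 to 1.16) and 1.06 (1.05 to 1.08), and Nlrc5 1.13 (1.01 to 1.27) and 1.12 (1.08 to 1.16). Untreated, these 3 were above 1 in 6, 7 and 5 of the 8 clusters, with the interval above 1 in only 1, 1 and 0. Tap1 was at 0.80 in High_Apoe, with the interval below 1. After LPS they were above 1 in 7, 6 and 7 clusters, with the interval above 1 in 6, 5 and 5. With clusters weighted equally, the untreated log2 ratio of Tap1 fell from 0.14 to 0.04. With 1 library on each side, these ratios cannot be told apart from a difference between 2 cultures.

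The heavy and light chains and tapasin lay closer to 1. H2-K1 had ratios of 0.990 (0.979 to 1.0) untreated and 0.980 (0.976 to 0.985) after LPS, and the second turned above 1 with median-of-ratios and TMM scaling. H2-D1 had 0.979 (0.970 to 0.988) and 1.05 (1.04 to 1.05). B2m had 1.03 (1.02 to 1.04) and 0.988 (0.984 to 0.991), the latter above 1 with the same 2 scalings. Tapbp had 1.0 (0.977 to 1.02) and 1.04 (1.03 to 1.05).

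**Figure D5:**
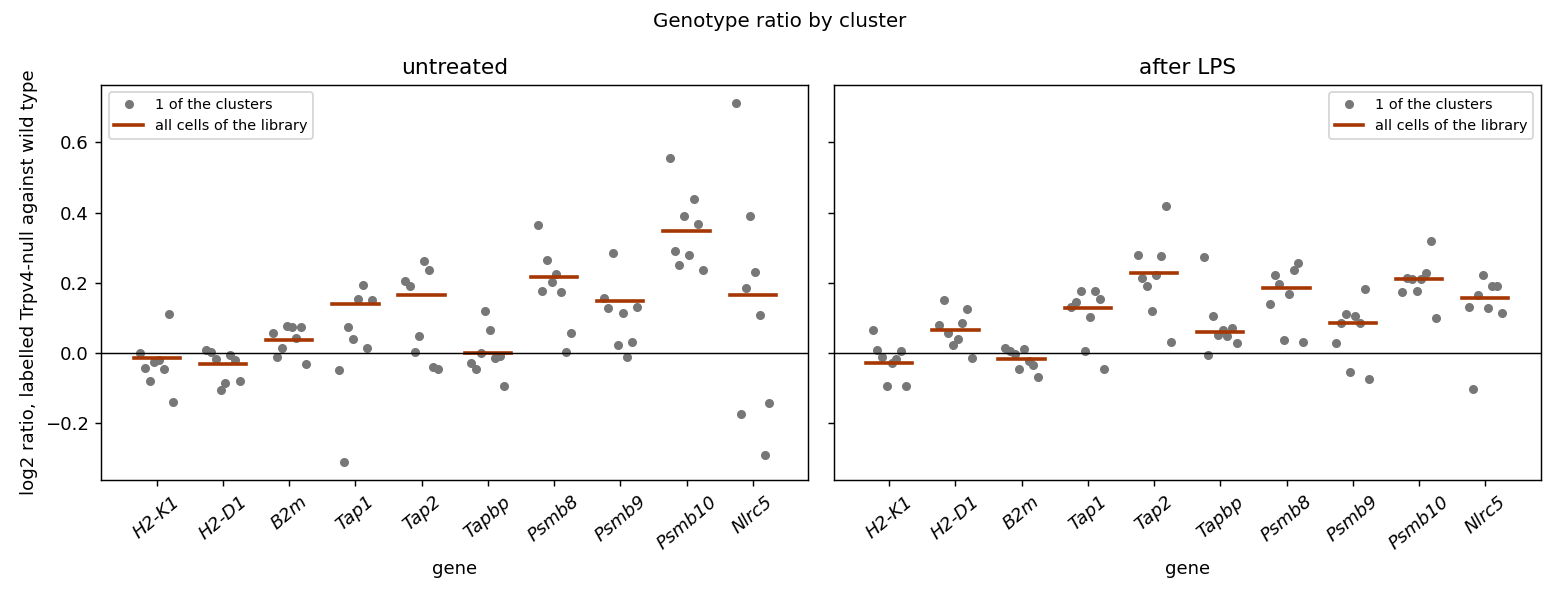
log2 ratio of the library labelled Trpv4-null to wild type for each gene, untreated (left) and after LPS (right); grey points are the 8 clusters and brown lines all cells of the library. The points of Psmb10 and Psmb8 all lie above 0 in both panels, those of H2-K1, H2-D1, B2m and Tapbp lie between -0.14 and 0.27, and the untreated points of Nlrc5, which rest on few UMIs, spread widest.

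The LPS ratios of the genotypes lay close together. The difference in log2 ratio (labelled Trpv4-null less wild type) ran from -0.14 for Psmb10 to 0.10 for H2-D1. For Psmb10 the levels differed more between labels before LPS than with it. None of these differences was tested.

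Over the 32 points given by 4 libraries and 8 clusters, which share library, depth and cells, the 10 genes followed each other closely as log2(CPM + 1). The 45 pairs among them had a Pearson r of 0.63 to 0.99, with a median of 0.94. The most similar patterns were sought among genes that reached 20 CPM in any of the 32 points. The pattern most like that of Psmb9 was that of its neighbour Tap1 (r = 0.991). The third most like that of Tap1 was that of Psmb9, after Pnp (0.993) and Ifi209 (0.992). Tap2 was also nearest to Psmb9 (0.979). H2-K1 was nearest to B2m (0.983), and B2m to Slfn4 (0.988). Psmb8 was nearest to Ms4a4c (0.993) and then to Psmb9 (0.985), Psmb10 to Ifitm3 (0.988), Tapbp to Lgals3bp (0.988) and Nlrc5 to Cmpk2 (0.984), one of the genes the authors used to name the interferon-type cluster. H2-D1 stood apart, with its nearest gene, Chmp2a, at 0.869. Another scale, added after seeing the data, had the mean of each library taken off. On it the 45 pairs had r from 0.21 to 0.96, with a median of 0.65. Psmb9 was still nearest to Tap1 (0.958), and Psmb8 was then nearest to Psmb9 (0.946). H2-K1 was then nearest to Ppp2r5a (0.860), ahead of B2m (0.797), and Tap2 to Gbp4 (0.945), ahead of Psmb9 (0.930). Psmb9 was no longer among the 3 genes nearest to Tap1.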

How the data were processed

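The authors' deposited table holds counts of UMIs per gene and cell, whole numbers that are not normalized. Per the file headers, the annotation of the cells holds UMI counts, the fraction of mitochondrial UMIs, the ratio of log10 genes to log10 UMIs, the library and the authors' cluster name for each. The submitters' processing notes name Cell Ranger 3.1.0, Seurat 4, R 4.2 and mm10, with no role or order. The sources used here do not give the aligner settings, cell filters, doublet removal or strand use. No doublet caller was run, and 74 barcodes occurred in 2 libraries.

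UMIs were summed over all 27366 deposited cells of a library and scaled to CPM. Ratios are of CPM and log2 ratios of CPM plus a pseudocount of 1. A gene was compared with at least 20 CPM and 30 UMIs in the higher library, and 2-fold is a size, not a test. Intervals are exact at 95% (Poisson for levels, conditional for ratios, Clopper-Pearson for shares) and cover counting error only. No test was run, since each group is 1 library.

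The genes and lists were chosen with earlier results of these data known. Named were the 10 genes, 13 fixed relatives, up to 4 compared genes of each list with the largest absolute wild-type LPS ratio, the 3 genes of highest r for each of the 10, the top marker of each cell type, and genes said to be named later, and 1 gene the rule names is not reported here. The cluster of proliferating cells, the 5% of cells with the most UMIs and others were left out as alternatives.

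Gene positions are from GENCODE M21 on GRCm38, the assembly mm10 names, and upstream windows of 250 bases from RefSeq (GRCm38.p6). Motifs were searched on both strands. A window counts once for a motif however many matches it holds, and motifs may overlap. TMM factors came from edgeR 4.0.16 (R 4.3.3). All else was done in Python 3.11.15 with pandas 2.3.3, numpy 2.4.6, scipy 1.17.1 and matplotlib 3.10.9. Only the step from library sums to ratios, their intervals and 2-fold sizes was tested on simulated counts.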

Additional observations from a re-analysis of the deposited data

Results flagged for a closer look

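For 2 of the 10 genes, the ratio between genotype labels pointed one way in the untreated libraries and the other way after LPS, and the difference between the treatments was not tested, since each group is 1 library. H2-D1 had a log2 ratio of -0.03 untreated and 0.07 after LPS, a difference of 0.097. B2m had 0.04 untreated and -0.02 after LPS, a difference of -0.055, and its ratio after LPS turned above 0 with median-of-ratios and TMM scaling.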

How the results depend on the processing

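The counts of the 10 genes at least 2-fold higher or lower stayed within 1.5 times of those reported in the 4 comparisons under every alternative run. Of 440 log2 ratios of the 10 genes under the alternatives, 272 stayed within their counting interval, 168 moved beyond it and 0 of those past 2-fold changed sign. Of 72 pair shares, 37 stayed within their interval and 35 moved. Ratios near 1 between genotypes did change sign: untreated H2-K1 with the mean over cells or thinned cells, untreated Tapbp without the 20 most abundant genes, the 5% of cells with the most UMIs or the interferon-type cluster, and H2-K1 and B2m after LPS with either size factor. Across all genes, a size of 1.5-fold gave 713 higher and 2398 lower for LPS in wild type and 755 and 2561 in the libraries labelled Trpv4-null, and no level filter 665 and 2016, and 704 and 2568. TMM factors gave 848 and 392, and 986 and 466. Depth limits Nlrc5 most, with 556 and 676 UMIs in the untreated libraries. No paired analysis was run, since each group is 1 library and the sample titles give no replicates to pair. Taking the genotype labels as 2 pairs for LPS would leave 1 residual degree of freedom, and that fit was not run.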
